A study of Mus musculus with 9 samples.

Results

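Of 36274 H3K27ac interactions called in untreated mouse embryonic stem cells, 1208 joined a pair of 2 kb bins that was also joined by an interaction in the CTCF list and by one in the RAD21 list. These 1208 interactions, called supported interactions here, are the subject of what follows. They were chosen by position alone, with each 1 kb bin of the CTCF and RAD21 lists assigned to the 2 kb bin that holds it. Another 1052 untreated H3K27ac interactions matched the CTCF list only, 853 matched the RAD21 list only and 33161 matched neither list.

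The interactions were measured by MNase HiChIP, in which crosslinked chromatin is cut by micrococcal nuclease, neighbouring DNA ends are ligated and an antibody enriches the ligated DNA. All 9 libraries came from E14 cells, a mouse embryonic stem cell line, of the genotype CTCF AID, in which CTCF carries a tag that allows the protein to be degraded once the auxin IAA is added. H3K27ac was profiled without IAA and after 12 h of IAA, CTCF and RAD21 without IAA only, all in serum-free medium with LIF and the inhibitors PD0325901 and CHIR99021. Each of the 4 groups was deposited as 1 list pooled over its libraries (2, 2, 2 and 3 of them), so the values below carry no replicate error, and the untreated control carries the tag as well. Neither the amount of CTCF protein nor the CTCF and RAD21 contacts under IAA were analysed here, and the labels do not say whether the cells are 1 clone. Start sites of 10 of 10 stem cell markers, among them Pou5f1, Sox2 and Nanog, lay in anchors of both H3K27ac lists, against 3 of 18 markers of other cell types (Cdx2, Col1a1 and Otx2) in the untreated list and 1 of 18 after IAA.

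CTCF is a DNA-binding zinc finger protein whose motif is not symmetric, so each bound site has a direction. Cohesin, the ring-shaped complex that contains RAD21, extrudes loops of chromatin and is halted at CTCF, most often at pairs of sites whose motifs point towards each other. H3K27ac, acetylation of histone H3 at lysine 27, marks active promoters and enhancers. A supported interaction is a place where a contact captured with H3K27ac, which needs an H3K27ac peak at 1 anchor at least, coincides with contacts captured with CTCF and with RAD21.

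The following stretches of genome show the best match to the CTCF core motif at the anchors of interactions that recur below. Matches to this 14-letter motif were allowed 1 mismatch on either strand. Each line is read 5′ to 3′ on the strand named, with the matched letters in capitals and 8 flanking bases on each side in lower case, on the RefSeq GRCm38 genome. The first 3 pairs point towards each other and belong to supported interactions that lost their call after IAA. The next pair, at Dhx8, points one way and lost most of its contacts, and the last pair, at Pou5f1, points one way and kept its call.
Ccr4 intron, chr9:114500328-114500357, plus strand: tataacggCCAGCAGATGGCAGcgttttcc
near Trim71, chr9:114581613-114581642, minus strand: aaagctcgCCACTGGGGGGCAGaggtgagc
near Ppp2r5c, chr12:110418945-110418974, plus strand: agctttgaACACCAGATGGCGCtcaaggat
Hsp90aa1 intron, chr12:110703098-110703127, minus strand: gcagctgaCCAGCAGGTGGCGCtaaacacc
Gm43837, chr5:64382618-64382647, plus strand: cagatattCCAGCAGGTGGCACtcttgctc
Klf3 start site, chr5:64813658-64813687, minus strand: aaagagaaCCAGTAGGTGGCGCacgaaaac
Rnu2-10, chr11:101658961-101658990, plus strand: aaatgtgtCCACCAGGAGGCAGcatctgct
Dhx8 start site, chr11:101732824-101732853, plus strand: cttcccccCCGCTAGAGGCCGCcactgaac
near H2-Q10, chr17:35484246-35484275, plus strand: cctagaggACACTAGGGGGCGCgctgagct
Pou5f1 start site, chr17:35506131-35506160, plus strand: tctcacccCCACCAGGTGGGGGtgatgggt

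Supported interactions spanned longer distances than the list they came from, and the less covered of their anchors had lower H3K27ac coverage. Their median span was 64.0 kb (6 to 828 kb) against 24 kb for all 36274 untreated interactions. That anchor had a median coverage of 1253 against 1635. Counted once per bin, however, supported anchors had a higher median coverage than other untreated anchors, 1632 against 1477. Both anchors held an H3K27ac peak in 75.9% of supported and 85.2% of all interactions. Contact counts were close to those of the whole list, with a median of 12.0 (quartiles 9 and 17, range 7 to 558) against 13. Relative to the count that the authors' model predicted from distance and coverage, the median was 7.02-fold against 5.50-fold. In the lists that chose them, contacts were summed over the listed 1 kb pairs inside each 2 kb bin pair. More than 1 such pair was listed for 524 supported interactions in the CTCF list and 377 in the RAD21 list. The summed contacts had a median of 44.0 for CTCF (6 to 734) and 25 for RAD21 (6 to 500). These last values and those near the limits of the rule are descriptions. Just inside the limit, 54 supported interactions had an untreated H3K27ac q-value from 0.04 to 0.05. Just outside it, 1549 other interactions lay within 1 bin of a pair found in both factor lists, with a median of 12.0 contacts and 44.0 kb. After IAA 41.3% of these were absent by the measure used below, and 34.2% were called at the same pair.

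After 12 h of IAA, most supported interactions were no longer called. No interaction within 1 bin at both anchors was in the IAA list for 788 of 1208, 65.2% (95% Wilson interval 62.5 to 67.9), where 34.3% of all untreated interactions were absent by the same measure. The share was 44.3% (41.3 to 47.3) for interactions matching the CTCF list only, 28.4% (25.4 to 31.5) for those matching the RAD21 list only and 33.0% (32.5 to 33.5) for those matching neither. The share of calls lost was thus highest in the class found in both lists. Among the 542 supported interactions whose 2 bins both stayed anchors in the IAA list, 29.7% were absent, against 17.6% of all such interactions. An interaction called at the same pair keeps both its bins in the IAA list by itself. This subset therefore depends on the outcome, and its shares do not separate loss of anchors from loss of contacts. The low share of the RAD21 class came with more contacts, a median of 19 against 13 for those matching neither. At 6 to 9 contacts 81.3% of the RAD21 class were absent against 64.4%, at 10 to 14 contacts 52.6% against 39.7% and at 15 to 24 contacts 22.0% against 18.7%. At 25 contacts or more the order turned, with 2.15% of 326 (1.04 to 4.37) against 6.76% of 4692 (6.07 to 7.51). The same bin pair was called again for 306 supported interactions, 25.3% (23.0 to 27.9), against 42.9% of all untreated interactions and 62.3% of those matching RAD21 only. The supported share was above that of the other interactions on 19 of 20 chromosomes. The exception was the X chromosome, where 12.5% of 8 were absent against 34.2%. These intervals cover counting error only, since interactions that share anchors are not independent, nor are PCR reads that carry no molecular identifier. With 1 pooled list per condition, the comparison is between 2 pooled lists, and no test over samples could be made.

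Absence varied with how many contacts an interaction had and how far it reached. Among supported interactions with 6 to 9 untreated contacts, 94.4% were absent after IAA, against 65.3% of the other untreated interactions with as many. The shares were 76.2% against 40.3% at 10 to 14 contacts and 43.4% against 19% at 15 to 24. At 25 contacts or more they were 8.33% and 6.52%, but this mixes spans, since 3745 of the 4692 strong interactions that matched neither list spanned under 20 kb. Under 20 kb, 7.81% of 64 strong supported interactions were absent, against 8.30% of 3745 that matched neither list. At 20 to 49 kb the shares were 3.77% of 53 against 0.146% of 685, at 50 to 99 kb 6.90% of 29 against 1.70% of 176 and at 100 kb to under 200 kb 21.1% of 19 against 1.54% of 65. From 200 kb, 1 of 3 and 1 of 21 were absent. From 20 kb upwards each share rests on 1 to 4 absent supported interactions, and the intervals overlapped at 50 to 99 kb and from 200 kb. By distance, the supported share rose from 23.1% under 20 kb, where it was 24.7% for the others, to 55.4% against 32.3% at 20 to 49 kb and 73.8% against 42.9% at 50 to 99 kb. It was 80.7% against 50.1% at 100 kb to under 200 kb and 91.5% against 58.6% from 200 kb. The difference between supported and other interactions was therefore seen from 20 kb upwards, but not below.

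**Figure D1:**
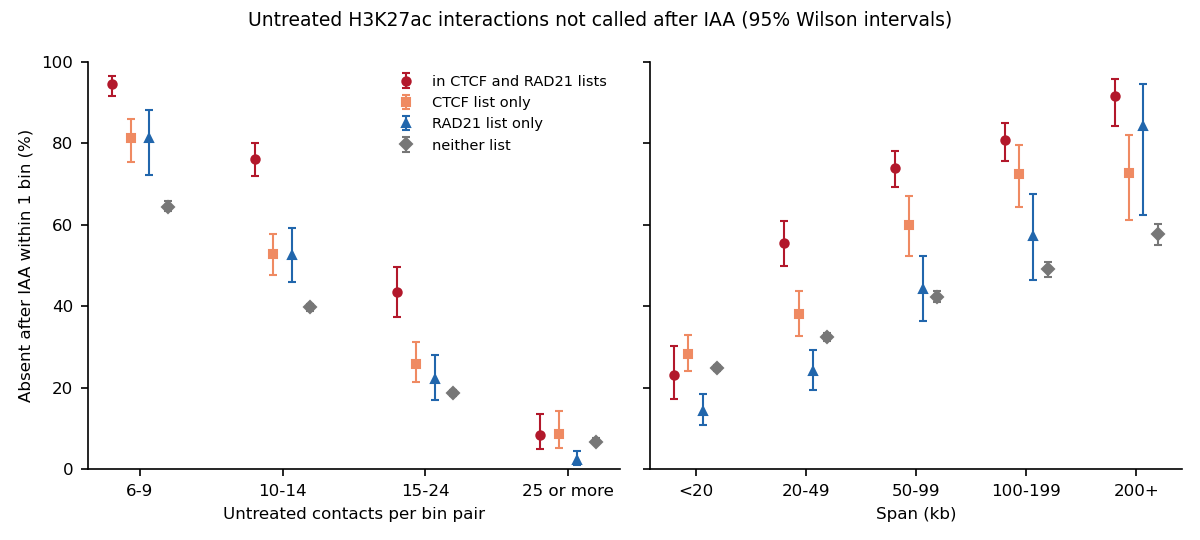
Share of untreated H3K27ac interactions without a call within 1 bin after 12 h of IAA (y axis, %), by untreated contacts per bin pair (left) and by span in kb (right), for interactions found in the CTCF and RAD21 lists, in 1 of them or in neither. Points are shares and bars 95% Wilson intervals; the supported interactions lie highest below 25 contacts and from 20 kb. At 25 contacts or more, with all spans together, 8.33% of them were absent, against 8.67% of interactions matching the CTCF list only, 2.15% matching the RAD21 list only and 6.76% matching neither.

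Other features of the lists moved with absence too, and their part in the difference was not tested. All untreated interactions were split into 4 classes of equal size by the coverage of the less covered anchor (bounds 1098, 1635 and 2548). From the lowest to the highest class, 89.3%, 70.8%, 42.2% and 11.9% of supported interactions were absent. The other interactions gave 50.8%, 39.6%, 27.3% and 15.9%, and in the best covered class the intervals overlapped (7.74 to 17.8 against 15.2 to 16.7). With a peak at both anchors, 56.9% of 917 supported interactions were absent against 29.4% of the others. With a peak at 1 anchor, 91.4% of 291 were absent against 55.6%. Interactions with no other untreated interaction within 1 bin of both anchors made up 48.1% of the supported set and 36.7% of all. Among these isolated ones 84.7% of the supported and 63.3% of the other interactions were absent, and among those with such a neighbour 47.2% and 16.1%.

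A weak interaction can leave the list through a small change, so the count needed for a call after IAA was estimated from the model's prediction. The median estimate was 9 contacts for supported interactions. It is approximate, since some pairs were called after IAA with fewer contacts. The start sites of Cdk9 and Tor2a, for example, were called with 9 contacts where 10 were estimated. Of the 232 with at least 2 times the needed count before IAA, 60 were absent after it, 25.9% (20.7 to 31.9). Of 3118 other interactions with as large a margin, 84 were absent, 2.69% (2.18 to 3.32). Interactions matching the CTCF list only gave 6.72% of 134 and those matching RAD21 only 2.11% of 285. These 60 were 7.61% of the 788 absent supported interactions, so most absences were of interactions without such a margin.

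The 6 absent supported interactions with the most untreated contacts had 43 to 28 of them, and none had a call within 1 bin after IAA. The first joined the start site of Slc35b1 (chr11:95384001-95386000), which encodes a nucleotide transporter of the endoplasmic reticulum, to an intergenic bin nearest to Nxph3 (chr11:95520001-95522000). It spanned 136 kb with 43 untreated contacts where the model predicted 1.38, and 8 were estimated to be enough for a call after IAA. Both of its anchors stayed in the IAA list, with coverages of 4724 and 3064 against 4446 and 2253 before. The second, with 40 contacts over 164 kb, joined the start site of Fignl1 (chr11:11808001-11810000), an ATPase of DNA repair, to an intron of the imprinted adaptor gene Grb10 (chr11:11972001-11974000). The Fignl1 bin stayed an anchor in the IAA list, and the Grb10 bin, with a coverage of 932, did not.

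The third joined the start site of the zinc finger gene Zfp638 (chr6:83914001-83916000) to a bin in an intron of the same gene (chr6:83880001-83882000), with 39 contacts over 34 kb. The fourth, with 36 contacts over 80 kb, joined an intron of the chemokine receptor gene Ccr4 (chr9:114500001-114502000) to an intergenic bin nearest to Trim71 (chr9:114580001-114582000), an RNA-binding regulator of early development. The fifth joined an intergenic bin near Ppp2r5c (chr12:110418001-110420000), a subunit gene of a protein phosphatase, to an intron of the chaperone gene Hsp90aa1 (chr12:110702001-110704000), with 29 contacts over 284 kb. The Ccr4 and Hsp90aa1 pairs are those whose motif matches, printed above, point towards each other. The sixth was short, 8 kb from an exon of Gm49240 (chr15:12196001-12198000) to the start site of the myotubularin-family gene Mtmr12 (chr15:12204001-12206000). Its 28 contacts exceeded the 26 estimated as needed after IAA only narrowly, so of the 6 it had the smallest margin.

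The 4 longest supported interactions were all absent after IAA. They spanned 828 kb on chromosome 18 near Arhgap12 with 7 contacts, 520 kb from an intron of the recombination gene Rad51b (chr12:79612001-79614000) with 7 contacts, and 430 kb from Gm43837 (chr5:64382001-64384000) to the start site of the zinc finger gene Klf3 (chr5:64812001-64814000) with 14 contacts. The last spanned 424 kb from the Ppp2r5c bin named above to chr12:110842001-110844000, with 13 contacts. The Rad51b and Klf3 pairs and this last pair had motif matches that point towards each other. The 7 contacts of the first and second lay at or below the 7 and 8 estimated as needed for a call after IAA.

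Motif matches at the anchors went with absence. The CTCF core motif was matched in 43.3% (41.3 to 45.3) of the 2348 CTCF-list bins of 1 kb inside supported anchors, in 41.7% of all 34038 CTCF-list bins and in 5.79% of the same 2348 windows moved by 10 kb. Over whole 2 kb anchors it was matched in 55.2% of 1824 supported anchors and in 12.4% of the 25480 other untreated H3K27ac anchors. Since CTCF interactions chose the anchors, this difference describes the choice. For single interactions, matches were counted per interaction, so the same 2 kb bin can count as matched in 1 interaction and not in another. The Fignl1 start site bin, for example, had a match in its pair with Grb10 and none in its pair with Ddc. Counted so, with a match at neither anchor 50.2% of 225 supported interactions were absent after IAA (43.7 to 56.7). With a match at 1 anchor 61.2% of 603 (57.2 to 65.0) were absent, and with a match at both 80.5% of 380 (76.2 to 84.2).

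The direction of the motifs separated the interactions further. In 339 of them the matches at an anchor all lay on 1 strand, and among these 258 (76.1%) pointed towards each other, 73 (21.5%) pointed the same way and 8 (2.36%) pointed apart. For 13630 CTCF-list pairs outside supported interactions these shares were 66.5%, 31.1% and 2.43%. After IAA, 89.9% (85.6 to 93.0) of those pointing towards each other were absent, 58.9% (47.4 to 69.5) of those pointing the same way and 37.5% (13.7 to 69.4) of those pointing apart. The order held by contact count, with 96.5% of 85 pairs pointing towards each other absent at 10 to 14 contacts against 59.5% of 37 that pointed the same way or apart, and 82.1% of 39 against 31.6% of 19 at 15 to 24. It also held by span, with 90.7% of 43 against 57.1% of 21 at 20 to 49 kb and 91.9% of 99 against 60.0% of 35 at 50 to 99 kb. Below 10 contacts, at 25 or more, under 20 kb and from 100 kb the intervals of the 2 kinds overlapped. A match in a window does not show that CTCF binds there, and the absence of one says only that these letters are not in the window.

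**Figure D2:**
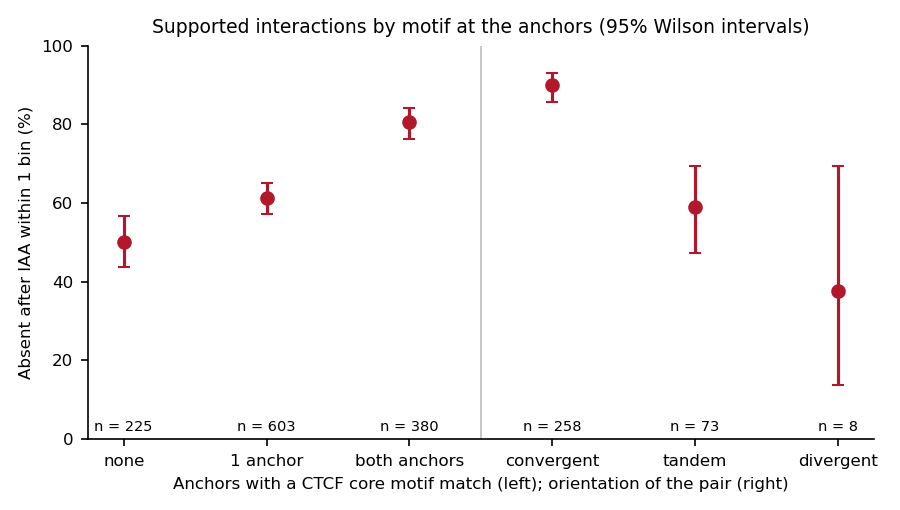
Share of supported interactions without a call within 1 bin after IAA (y axis, %), by the number of anchors with a match to the CTCF core motif (left of the line) and, where each anchor has matches on 1 strand, by the direction of the pair (right). Matches are counted per interaction, so the same bin can be matched in 1 interaction and not in another. Points are shares, bars 95% Wilson intervals and n the interactions behind each; the share rises from 50.2% with no match to 80.5% with both, and reaches 89.9% for convergent pairs.

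Supported interactions with more CTCF or RAD21 contacts, summed over the listed 1 kb pairs, were absent more often. From the class with the fewest CTCF contacts (6 to 25) to that with the most (82 to 734), 53.4%, 60.7%, 64.6% and 82.8% were absent. For 4 such classes of RAD21 contacts the shares were 56.6%, 60.3%, 62.3% and 82.1%. The step lay mainly at the top class in both lists. Median H3K27ac contacts stayed between 11.0 and 12.0 in all 8 classes, while the median span was 70.0 kb and 78.0 kb in the top CTCF and RAD21 classes and 52.0 to 64.0 kb in the others.

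Start sites of protein-coding genes lay in both anchors of 148 supported interactions (12.3%), in 1 anchor of 430 (35.6%) and in neither anchor of 630 (52.2%). All untreated interactions gave nearly the same shares, 12.3% with both and 32.7% with 1. The share with both moved to either side of the whole list in other settings, to 8.45% against 12.3% with membership within 1 bin and to 15% against 11.6% with at least 10 contacts. Absence ran the other way in the 2 sets. Of supported interactions with no start site, 74.0% (70.4 to 77.2) were absent after IAA, of those with 1 60.7% (56.0 to 65.2) and of those with 2 41.2% (33.6 to 49.3). Of the other interactions 29.6%, 36.7% and 40.5% were absent. Between 2 start sites, the supported and the other share thus differed by less than their intervals over all contact counts. Interactions between 2 start sites also had higher H3K27ac coverage, shorter spans and fewer CTCF and RAD21 contacts than those with none. Their lower anchor coverage had a median of 1918 against 1116, their contacts 14 against 11.0, their span 46.0 kb against 66.0 kb, their CTCF contacts 32.0 against 53.0 and their RAD21 contacts 16 against 31.0. The part of these features in the difference was not tested. At matched contacts, supported interactions between 2 start sites were absent in 85.7% of 21 against 71.9% of the others at 6 to 9 contacts, 61.1% of 54 against 47.9% at 10 to 14 and 23.8% of 42 against 19.6% at 15 to 24. At 25 contacts or more 0 of 31 were absent, with an upper bound of 11.0%, against 4.08% of 515. The intervals of the supported and the other interactions overlapped in each of these classes.

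The 1824 anchor bins of supported interactions held a start site in 568 cases (31.1%), against 23.9% of other untreated anchors. A further 533 (29.2%) were intergenic, 325 (17.8%) overlapped an exon and 255 (14%) an intron of a protein-coding gene without its start, and the rest overlapped other genes. Where an anchor held both a start site and a motif match, in 202 anchors, 71.8% of the pairs lay within 500 bp of each other. Both lay in the same 2 kb bin by definition and no other anchors were compared, so this share is a description. Direction of transcription was read at 664 ends of supported interactions whose start sites were all on 1 strand, with a bin counted once for each interaction it belongs to. Transcription ran towards the partner bin at 40.2% of these ends, against 44.9% in the other interactions. The share was 47.1% at 357 ends of absent and 32.2% at 307 ends of called supported interactions. Since promoters recur among the ends, these shares are descriptions.

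Start sites of 612 protein-coding genes lay in supported anchors, 8.96% of the 6830 genes with a start site in any untreated H3K27ac anchor. For 291 of them every supported interaction was absent after IAA, for 265 every one was called and for 56 some were. Of 27 pluripotency regulators, 22 had a start site in an untreated anchor and 3 in a supported one, and each of the 3 kept a call. Pou5f1, a core transcription factor of embryonic stem cells, was joined over 22 kb to a bin near H2-Q10 (chr17:35484001-35486000 and chr17:35506001-35508000) with 28 contacts before and 18 after IAA, a log2 ratio of -0.61 (95% interval -1.46 to 0.25). Nanog, another such factor, was joined over 38 kb to an intergenic bin nearest to its own start (chr6:122668001-122670000 and chr6:122706001-122708000) with 13 contacts before and 14 after. Tbx3, a T-box factor, was joined over 86 kb to a bin in the antisense gene Tbx3os1 (chr5:119584001-119586000 and chr5:119670001-119672000) with 27 contacts before IAA. Its exact bin pair was not called after IAA, but an interaction within 1 bin was.

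The other gene lists had 0 to 6 members at supported anchors, to be read against the 8.96% of all genes at untreated anchors. A list of CTCF, cohesin and other factors such as Yy1 and Ldb1 had 20 annotated genes, 17 of them at untreated anchors. At supported anchors were 3, namely Ctcf itself, Stag1, which encodes a cohesin subunit, and Pds5b, a regulator of cohesin on chromatin. Each had a supported interaction that kept a call, but of the 4 at Stag1, 2 were absent. Of 25 genes of H3K27 acetylation, its readers, the Mediator complex and transcription elongation, 18 were at untreated anchors. Only 1, the elongation kinase gene Cdk9, was at a supported anchor, with a call after IAA. Of 18 polycomb genes, 14 were at untreated anchors and 0 at supported ones. Of 32 genes of LIF, MEK-ERK and GSK3-Wnt signalling, the pathways the culture medium acts on, 20 were at untreated and 6 at supported anchors. All supported interactions were absent after IAA for 3 of these, where this held for 291 of all 612 genes. They were the kinase gene Jak2, the feedback inhibitor gene Socs3 and the Wnt pathway repressor gene Tcf7l1. The Jak2 pair had 7 untreated contacts, where 8 were the estimated need for a call after IAA. Map2k1, Spred2 and Etv4 kept a call.

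The 306 supported interactions called at the same bin pair in both conditions had lower contact counts after IAA. Together they held 8843 contacts before and 7038 after, with medians of 22.0 and 16. With counts scaled to the totals of the 15551 bin pairs in both lists, the median log2 ratio was -0.29 (95% interval -0.36 to -0.19), against 0.03 for all shared interactions. The ratio was below 0 for 207 of 306 (67.6%), where 46.2% of all shared interactions were. By an exact binomial test (two-sided, Benjamini-Hochberg adjusted), 3 supported interactions passed an adjusted p of 0.05 with lower counts and 0 with higher counts, against background shares of 0.0386% lower and 0.0965% higher. At an unadjusted p of 0.05, 48 were lower, where 2.43% of all shared interactions were. By the same measure 2 were higher, where 308 of all 15551 were. Scaled by the model totals instead, 11 passed, where 60 of all 15551 did, and the median was -0.54 (all shared interactions -0.22). With membership within 1 bin the median was -0.15. The test compares the 2 pooled sets of libraries, not the conditions. Because the interactions had to be called in both lists, pairs that fell below the limit after IAA are not among these 306.

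The lower counts were found in interactions of 20 kb or more. The median log2 ratio was 0.01 (-0.11 to 0.16) for 98 shared supported interactions under 20 kb. It was -0.33 (-0.42 to -0.27) for 105 at 20 to 49 kb, -0.39 (-0.56 to -0.21) for 62 at 50 to 99 kb and -0.67 (-0.84 to -0.53) for 35 at 100 kb to under 200 kb. From 200 kb only 6 were left, with a median of -0.22 (-1.59 to 0.16). The other shared interactions had a median of 0.03 in each of these 5 classes. By number of anchors with a start site, the medians were -0.27, -0.23 and -0.33 for 0, 1 and 2, against 0.03, 0.03 and -0.04 for the others. Division by the change in anchor coverage gave -0.55 for the supported and -0.36 for all shared interactions, so it narrowed the gap between them.

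**Figure D3:**
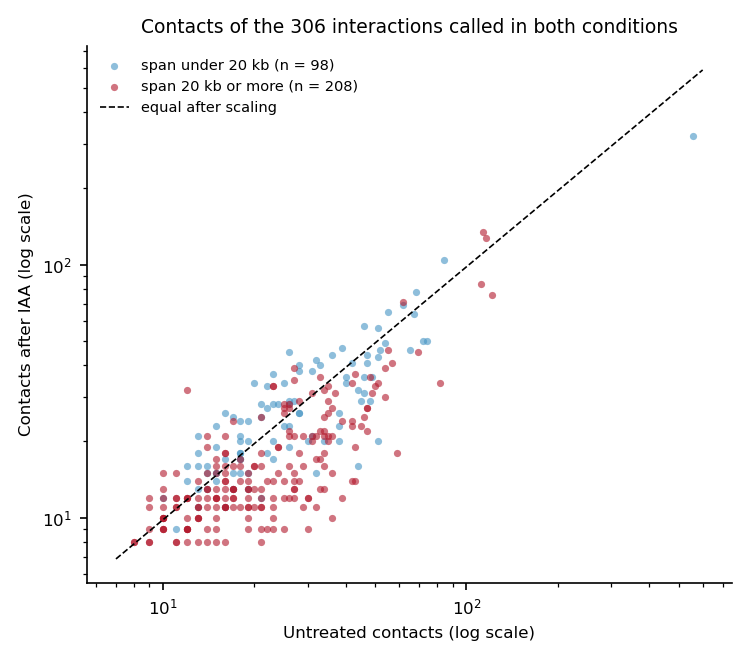
Contacts of the 306 supported interactions called at the same bin pair, untreated (x axis) and after IAA (y axis), both on log scales, with 1 point per interaction, blue under 20 kb and red from 20 kb. The dashed line marks equal counts after scaling to all shared interactions; red points lie mostly below it and blue points on both sides, and the point at 558 and 322 contacts is the ribosomal RNA repeat pair.

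The 6 called supported interactions with the most untreated contacts fell into 2 kinds. In 2 of them the bins lay in places known for repeated sequence and had no other partner in either list. One joined 2 bins at Gm26917 and Gm42418 (chr17:39842001-39844000 and chr17:39848001-39850000), a place known to carry a copy of the ribosomal RNA repeat, with 558 contacts before and 322 after (log2 ratio -0.76, adjusted p of 2.23e-10 in the binomial test). The other joined a bin at Gm2619 (chr1:85276001-85278000) to an intron of Sp110 (chr1:85592001-85594000), in a cluster of related Sp100 and Sp110 genes, with 116 and 127 contacts over 316 kb. Reads from near-identical copies cannot be placed with certainty, and how the authors treated them is not given in the sources used here.

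The remaining 4 had 7 to 20 other untreated partners at each anchor. Ywhag, which encodes a 14-3-3 protein, and Ssc4d were joined start site to start site (chr5:135934001-135936000 and chr5:135962001-135964000) with 121 contacts before and 76 after IAA. An interaction of 38 kb between 2 intergenic bins near Ptma (chr1:86486001-86488000 and chr1:86524001-86526000), the prothymosin alpha gene, had 113 and 135. The start site of Pcbp1 (chr6:86526001-86528000), an RNA-binding protein gene, was joined to an intron of C87436 (chr6:86472001-86474000) with 112 and 84. None of these passed the binomial test after adjustment. Hsp90aa1 had 84 and 104 contacts between its start site (chr12:110696001-110698000) and the intron bin printed above for its motif. That intron bin was thus at once the anchor of a 6 kb interaction that stayed and of the 284 kb interaction that was absent.

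The largest fall by log2 ratio was at Dhx8 (chr11:101732001-101734000), a splicing helicase gene joined at its start site to the U2 small nuclear RNA gene Rnu2-10 (chr11:101658001-101660000). It had 36 contacts before and 10 after IAA, a log2 ratio of -1.82 (-2.83 to -0.81). Its 734 CTCF contacts, summed over the listed 1 kb pairs, were the most of all supported interactions. Genes of U2 RNA occur in several similar copies, which limits the placement of reads here as well. The next fall was at the start site of Deptor (chr15:55112001-55114000), an inhibitor of mTOR signalling, joined over 156 kb to a bin nearest to Col14a1, with 30 contacts before and 9 after (-1.71, interval -2.78 to -0.63). The start site of the SUMO protease gene Senp3 (chr11:69682001-69684000) and an intergenic bin nearest to Tnfsfm13 (chr11:69714001-69716000) had 59 and 18 contacts (-1.68, interval -2.44 to -0.92). This pair passed the binomial test with an adjusted p of 0.00516, and the Dhx8 and Deptor pairs did not, with 0.0892 and 0.273.

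A pair of 90 kb between bins near Ifitm2 and B4galnt4 (chr7:140958001-140960000 and chr7:141048001-141050000) had 39 and 12 contacts (-1.67, interval -2.60 to -0.74). The third pair past the threshold, after the ribosomal repeat and Senp3, lay between 2 intergenic bins near Rbfox2, a splicing regulator gene, and Apol7a (chr15:77336001-77338000 and chr15:77358001-77360000). Its contacts were 82 and 34 (-1.24, interval -1.82 to -0.66, adjusted p of 0.0147 in the binomial test), while the coverage of its anchors was 9922 and 6454 before and 10868 and 6526 after. These coverages are not scaled, and the median log2 ratio of coverage was 0.20 at anchors outside supported interactions. At the Senp3 pair, coverage was 3333 and 4506 before and 3211 and 5002 after.

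No rise passed the test. The largest was between the start sites of Zfp74 and Zfp568 (chr7:29954001-29956000 and chr7:29982001-29984000), 2 zinc finger genes, with 12 contacts before and 32 after (log2 ratio 1.44, interval 0.49 to 2.40, adjusted p of 0.406 in the binomial test). The next spanned 14 kb or less, at Nufip2 with 26 and 45 contacts (0.82), an intron of Ddc with 20 and 34 (0.79) and Polg, the mitochondrial DNA polymerase gene, with 16 and 26 (0.73). The coverage of the less covered anchor was also higher after IAA at all 4, for example 3559 against 1711 at Nufip2.

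Anchors outlasted the supported interactions in many cases. Of the 1824 supported anchor bins, 1072 (58.8%, 56.5 to 61.0) were still an anchor of some H3K27ac interaction after IAA, against 61.8% (61.2 to 62.4) of the other untreated anchors. For the 1302 anchors of absent supported interactions the share was 44.0%, and for the 657 of called ones 95.3%. Of the 788 absent interactions, 161 (20.4%) had both anchors in the IAA list, 387 (49.1%) had 1 and 240 (30.5%) had neither. For absent other interactions these shares were 36.3%, 46.6% and 17%. Where coverage was listed in both conditions, its median log2 ratio was 0.13 at supported and 0.20 at other anchors. Coverage is given only for anchors of called interactions, so the coverage of the bins that left the list was not analysed here.

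Other H3K27ac interactions of the same anchors were absent far less often than the supported ones. There were 5733 untreated interactions that shared an anchor bin with a supported interaction without being one, and 36.4% (35.1 to 37.6) of them were absent after IAA, against 65.2% of the supported ones and 32.6% (32.1 to 33.2) of the 29333 at no supported anchor. The share over all unsupported interactions was 33.2%, and with membership within 1 bin the order of these 2 turned, to 32.2% against 32.9%. The median log2 ratio of the other partners was -0.02 (-0.05 to 0.03) when called in both conditions. They were shorter, with a median span of 38.0 kb, and their lower anchor coverage was higher, with a median of 1888. At matched span, the share of absent other partners was 19.7% under 20 kb, 33.5% at 20 to 49 kb, 42.5% at 50 to 99 kb, 55.9% at 100 kb to under 200 kb and 58.6% from 200 kb. It was below the supported share in each class, by a small margin under 20 kb and a wide one beyond. At matched contacts it was 68.3%, 44.8%, 18.7% and 4.12% from the fewest to the most.

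**Figure D4:**
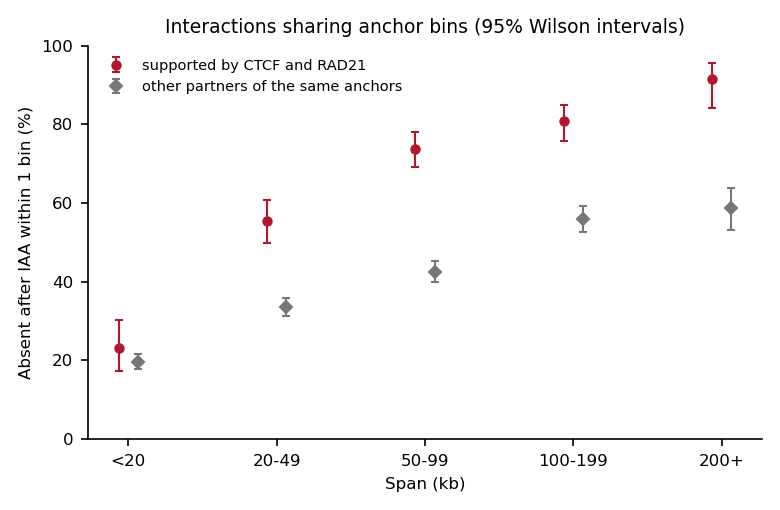
Share without a call within 1 bin after IAA (y axis, %) by span in kb (x axis), for the 1208 supported interactions and the 5733 other untreated H3K27ac interactions at the same anchor bins. Points are shares and bars 95% Wilson intervals, which overlap under 20 kb and are apart in the other 4 span classes.

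Supported anchors had a median of 2 other partners (at most 37), and 583 (32.0%) had none. Anchors with a start site had a median of 3 and those without one a median of 1. All supported interactions were absent at 1167 anchors. Of these, 664 had other partners before IAA, and 373 of the 664 (56.2%) had at least 1 of those still called. Within the 1241 anchors that had both kinds, the called share of supported interactions was lower than that of the other partners at 445, higher at 344 and equal at 452. These counts give only the direction at each anchor and not the size of the difference, so they cannot be set against the pooled shares. Of the 1824 supported anchors, 1419 held 1 supported interaction, which was either called or not. Where it was called, the anchor counted as higher whenever any of its other partners was not called. Where it was not called, the anchor counted as lower whenever any of its other partners was called. After IAA the supported anchors held 4361 interactions against 6941 before, while the whole list went from 36274 to 28210, and the anchors had been chosen in the untreated list. Of the 4361, 838 (19.2%) had no untreated interaction within 1 bin, against 24.1% of the whole IAA list, and these lay at 505 anchors with a median of 10 contacts.

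The 4 supported anchors with the most other partners kept most of them, counted within 1 bin. An intergenic bin nearest to Tgif1 (chr17:70828001-70830000), a transcriptional repressor gene, had 37 other partners, of which 34 were called within 1 bin after IAA, and its 1 supported interaction was called too. The Fignl1 start site bin had 29, of which 23 were called. Of its 2 supported interactions, the one with 55 contacts was called and the one with 40, to Grb10, was absent. A bin in an intron of Slc2a3 (chr6:122764001-122766000), a glucose transporter gene, had 29 other partners, of which 25 were called, and its supported interaction was called within 1 bin. A bin near Sox13 (chr1:133492001-133494000), a SOX factor gene, had 26, of which 20 were called, and its supported interaction of 9 contacts was absent. At the same bin pair, 24, 18, 19 and 16 of the other partners were called, in the order named. Over all other partners of supported anchors 36.4% were absent within 1 bin, and over unsupported interactions in the best covered class 15.9%. Coverage at these 4 bins was 10063 to 14017 before IAA and 10429 to 14290 after.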

How the data were processed

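MNase HiChIP was measured in 9 libraries, and all libraries of a group refer to the same deposited list, per the labels. Per the submitters' processing notes, the work used Trim Galore, BWA, MACS2, deepTools and the build mm10 (GRCm38). Their settings and the interaction caller's settings are not given in the sources used here. Per the file headers, each row holds 2 bins, a contact count that the authors did not normalise, the coverage of each bin, a peak flag, the contact signal predicted by the authors' model, a p-value and its adjusted form, the q-value. The deposited model probability is a fraction of the contacts. The headers match the layout of FitHiChIP, and the highest deposited q-value in each list was 0.05. The authors' models rested on 12551236 (untreated) and 14629323 (IAA) H3K27ac contacts, and on 2839756 CTCF and 1517698 RAD21 contacts, as computed from the predicted counts and probabilities. Counts of single bin pairs limit the precision.

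Members, gene lists and comparisons were chosen with earlier results of these data known. An interaction was absent when no row of the IAA list lay within 1 bin at both anchors. Shared bin pairs were compared by an exact binomial test (two-sided) against the split of the totals over shared pairs (347765 and 340816 contacts), and Benjamini-Hochberg adjustment over all 15551. The count needed for a call after IAA was estimated from the binomial p at the predicted count times 1.04. It is the lowest count whose binomial p reached the largest p in the IAA list (1.31e-04). Genes and start sites are those of the GENCODE vM21 basic annotation. An intergenic bin takes the name of the nearest protein-coding start site. The text names the 6 absent and 6 called interactions with most contacts, the 4 largest falls and rises among shared ones with 20 contacts or more over both conditions, all past an adjusted p of 0.05, those at pluripotency genes, the 4 longest and the 4 anchors with most other partners. Interactions of genes in the other lists, such as Jak2, are named outside this rule. Alternatives covered the q threshold, bin tolerance, contact minimum, scaling, start site and motif definitions. Scripts ran in Python 3.11.15 with scipy 1.17.1 and were tested on simulated data.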

Additional observations from a re-analysis of the deposited data

How the results depend on the processing

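There were 34 alternative results, which are read here by their values and not by a fixed limit of change. Absence stayed more frequent in supported than in all interactions in 8 of 8 alternatives. In 1 of these, with both bins still anchors after IAA, interactions called at the same pair enter the subset by themselves. With a q-value of 0.01 or less in every list, 783 interactions were supported, and 65.3% of them were absent. With membership within 1 bin, 2757 were, with 51.8% absent, 30.3% at the same pair, start sites at both anchors in 8.45% (all 12.3%), 32.2% of other partners absent (32.9% of all unsupported interactions, so the order of 36.4% against 33.2% turned) and a median log2 ratio of -0.15. With at least 10 contacts, 848 interactions were supported, and these shares were 56.5%, 32.4%, 15% (all 11.6%) and 31.4%. The absent share was 60.2% with a match within 2 bins, 58.0% for an untreated q-value of 0.01 or less and 29.7% (all interactions 17.6%) where both bins were still anchors in the IAA list. It was 84.7% for isolated interactions and 56.9% with peaks at both anchors, both chosen after seeing the data. Start sites lay at both anchors in 18.8% (all 20.9%) with neighbouring bins and in 15.6% (all 15%) with all annotated genes. The median log2 ratio was -0.54 (all -0.22) when scaled by model totals, with 11 calls (all 60), -0.55 (all -0.36) after division by coverage, and -0.39 from 20 kb. The last was chosen after seeing the data, as was leaving out the ribosomal repeat pair, which left 2 calls. The motif share was 15.1% with no mismatch and 55.2% over whole anchors. The cause of these shifts was not tested. No paired analysis was possible because the pooled lists carry no replicate numbers. For the same reason no replicate could be left out, and the spread between replicates is unknown. Counts of single pairs were low, with an untreated median of 13, and 21 of 15551 passed the adjusted threshold.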
